A study of Mus musculus with 15 samples.

Results

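The genes described here are the receptors, ligand carriers and adaptors through which a cell senses bacterial lipopolysaccharide at Toll-like receptor 4, together with the TGFβ pseudoreceptor Bambi. The set has 9 genes, taken by symbol from the 38277 gene identifiers measured: Tlr4, Ly96, Cd14, Lbp, Tlr2, Tlr3, Myd88, Ticam1 and Bambi. All 9 symbols were found, each on 1 row.

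Lipopolysaccharide is carried by the serum protein LBP to CD14, a surface co-receptor, which hands it to MD2, the product of Ly96, bound to TLR4. The activated receptor signals through the adaptor MyD88 towards NF-κB and inflammatory cytokines, and through the adaptor TRIF, the product of Ticam1, towards interferon-β. TLR3, an endosomal sensor of dsRNA, uses TRIF, and TLR2, a sensor of bacterial lipoproteins, uses MyD88. BAMBI is a membrane protein that resembles the TGFβ and BMP receptors but has no kinase domain and dampens TGFβ signalling. Hepatic stellate cells, the vitamin A storing cells that become the scar-forming myofibroblasts of the liver, are known to lower Bambi when TLR4 is activated, which makes them more sensitive to TGFβ.

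RNA sequencing of poly(A) RNA was reported for 15 libraries of JS1, a mouse hepatic stellate cell line whose labels give a Tlr4-null genotype with wild-type TLR4 put back, so the controls also carry that restored receptor. Cells were transduced with an empty vector (EV) or to overexpress XPO4, the nuclear transport receptor exportin-4, and were left untreated (baseline) or given TGFβ, at a dose and for a time that the labels do not state. There were 4 EV and 3 XPO4 libraries at baseline, and 4 EV and 4 XPO4 libraries with TGFβ. The labels do not say whether the libraries came from separate cultures, whether each line was 1 clone or a pool, or from which species the restored TLR4 and the XPO4 construct came, so the p-values measure only how far these libraries scatter, which may be technical scatter. The labels name no lipopolysaccharide treatment.

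The values were the authors' FPKM (fragments scaled by transcript length and library size), and differences were tested with limma on log2(FPKM + 1), which understates the change of low genes. A gene was called at a Benjamini-Hochberg adjusted p under 0.05 over all genes tested, those with a mean of at least 1 FPKM. FPKM summed to between 480030 and 526338 in the 15 libraries, with 11829 to 11971 genes at 1 FPKM or more, and the read depth behind them is unknown. Xpo4 averaged 7.61 ± 1.44 FPKM (SD, n = 4) in EV and 15.7 ± 1.69 FPKM (SD, n = 3) in XPO4 libraries at baseline, a log2 difference of 0.96 with an adjusted p of 0.00669, and was higher in the XPO4 libraries with TGFβ as well, by 0.97 with an adjusted p of 0.0105. Of 12 stellate cell markers 6 reached a mean of 1 FPKM, among them Vim at 1921 to 2927 FPKM and Col1a1 at 69.9 to 172 FPKM, while Lrat, which makes the stored retinyl esters, was listed at 0 in all 15 libraries. Of 11 macrophage markers 3 reached that mean, and Adgre1, Marco, Cd5l and Tyrobp were listed at 0 in every library.

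The 9 genes are protein coding. In the GENCODE M21 annotation of the mouse build mm10, Tlr4 spans chr4:66827584-66930284 on the plus strand, Ly96 chr1:16688051-16709611 on the plus strand, Lbp chr2:158306493-158332852 on the plus strand and Tlr2 chr3:83836272-83841767 on the minus strand. Tlr3 spans chr8:45395665-45411080, Myd88 chr9:119335934-119341411 and Ticam1 chr17:56269319-56276786, all on the minus strand. RefSeq promoter windows of 300 bases (250 before to 50 after the start, build GRCm38.p6) matched 4 of the 9 genes. Those of Tlr3 and Myd88, the genes that changed below, and of Ticam1, the adaptor of TLR3, which passed no test, are printed 5′ to 3′ along the gene, all from the minus strand. Capitals mark matches to AANNGAAA, a core bound by interferon regulatory factors, or to GAAANNGAAA, the longer repeat of interferon-stimulated response elements, searched on both strands.
Tlr3, chr8:45410331-45410630: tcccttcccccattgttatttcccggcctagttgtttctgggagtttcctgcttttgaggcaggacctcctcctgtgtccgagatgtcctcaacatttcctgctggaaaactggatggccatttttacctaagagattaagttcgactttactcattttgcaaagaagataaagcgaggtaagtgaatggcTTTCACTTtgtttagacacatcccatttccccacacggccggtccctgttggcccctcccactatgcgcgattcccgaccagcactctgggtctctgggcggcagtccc
Myd88, chr9:119339969-119340268: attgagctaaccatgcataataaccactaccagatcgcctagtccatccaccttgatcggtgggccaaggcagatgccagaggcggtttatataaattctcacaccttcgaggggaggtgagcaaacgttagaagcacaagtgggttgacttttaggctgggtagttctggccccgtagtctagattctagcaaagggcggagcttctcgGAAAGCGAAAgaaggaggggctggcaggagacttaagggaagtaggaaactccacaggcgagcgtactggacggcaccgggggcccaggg
Ticam1, chr17:56276718-56277017: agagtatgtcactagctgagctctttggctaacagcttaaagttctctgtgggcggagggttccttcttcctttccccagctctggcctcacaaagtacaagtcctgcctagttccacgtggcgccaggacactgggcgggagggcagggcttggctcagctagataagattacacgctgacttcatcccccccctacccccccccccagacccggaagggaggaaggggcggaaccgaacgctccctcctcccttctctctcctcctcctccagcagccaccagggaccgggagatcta
The Tlr3 window held 1 match to AANNGAAA, on the strand opposite the gene and 59 to 52 bases before the start, and none to GAAANNGAAA. In Myd88 there was 1 match to GAAANNGAAA, 40 to 31 bases before the start, and the shorter motif matched inside it. The Ticam1 window had no match to either, and that of Tlr2 at chr3:83841559-83841858 had 2 to AANNGAAA. Of 32851 RefSeq promoter windows, 23.9% held AANNGAAA and 3.44% held GAAANNGAAA, so a match is a description of the letters and not a binding site. Only 1 start of each gene was searched. The windows of Tlr3 and Myd88 lie wholly inside the gene spans above, and these genes have 9 and 3 annotated transcripts, so other starts may exist.

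Taken over all 15 libraries, the adaptor Myd88 had the highest level of the 9 genes and the carrier Lbp the lowest. Mean levels were 59.0 FPKM for Myd88, 25.0 FPKM for Tlr3, 20.4 FPKM for Cd14, 10.4 FPKM for Tlr4 and 8.48 FPKM for Ticam1. Ly96 followed at 2.16 FPKM and Bambi at 0.828 FPKM, and both Tlr2, at 0.117 FPKM, and Lbp, at 0.0998 FPKM, were near the bottom of what was measured. Myd88 was above every other member in each library, whereas the order of Tlr3, Cd14 and Tlr4 depended on the construct. In EV libraries Cd14 was the higher of Cd14 and Tlr3 and the ranges of Tlr3 and Tlr4 overlapped, at 7.81 to 12.3 and 7.94 to 13.6 FPKM at baseline. In XPO4 libraries Tlr3 lay above Cd14 in each library. Tlr4 and Ticam1 did not separate in any group. Only 6 of the 9 genes had a mean of at least 1 FPKM and were tested in the fits, since Bambi, Tlr2 and Lbp fell below it.

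**Figure D1:**
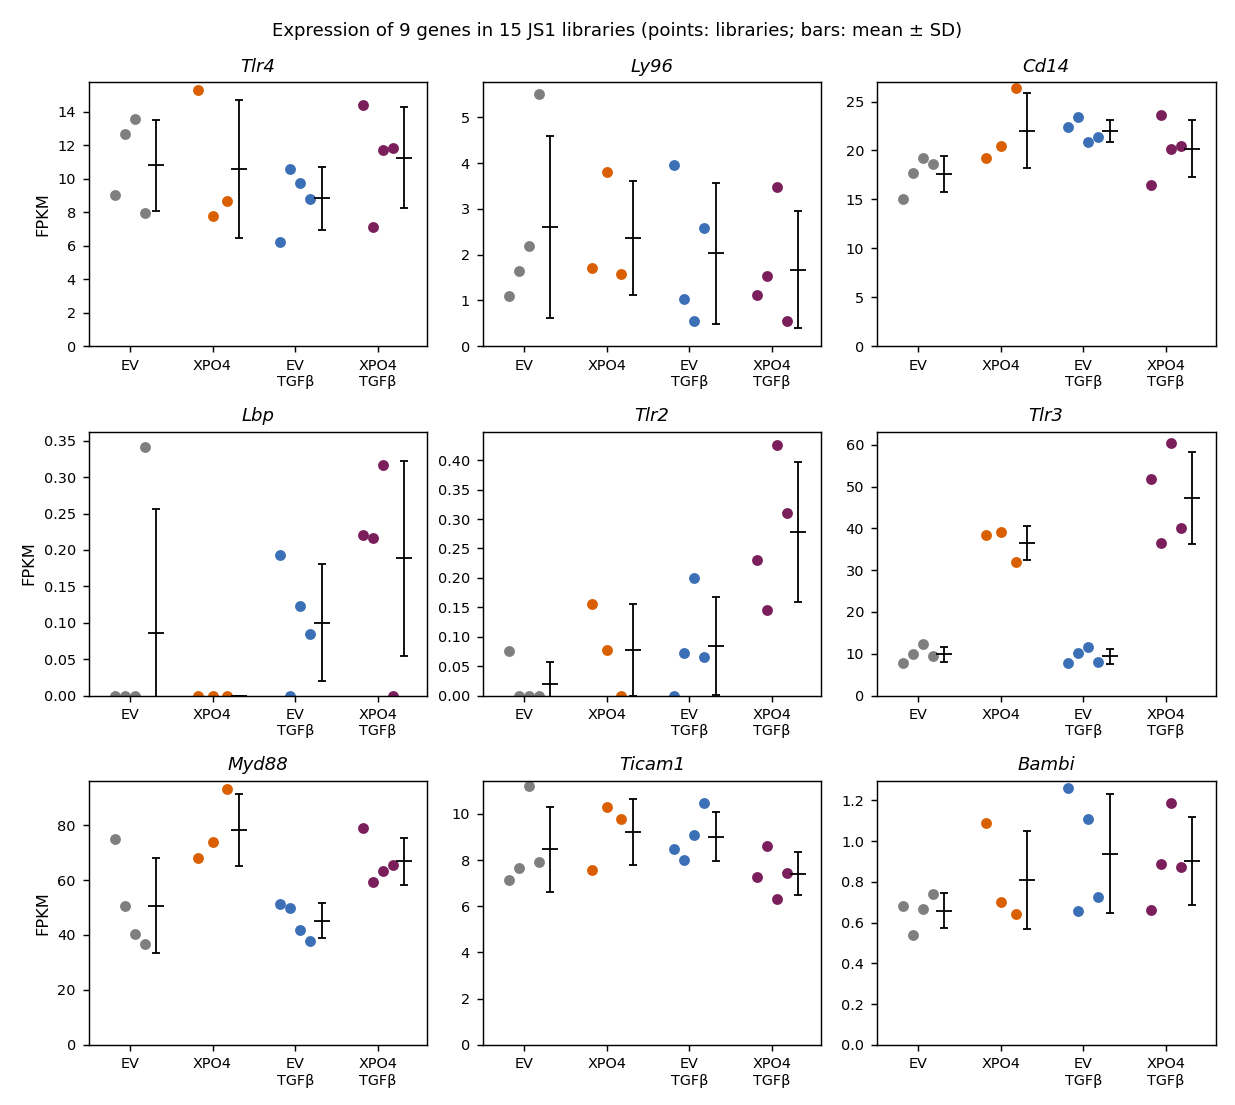
FPKM of each of the 9 genes in every library (points), by group, with the group mean and the SD as bars drawn no lower than 0. Tlr3 sits at 7.78 to 12.3 FPKM in the 8 EV libraries and at 31.9 to 60.5 FPKM in the 7 XPO4 libraries, while the groups of Tlr4, Ly96, Ticam1 and Bambi overlap.

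Of the receptors, Tlr3 rose with XPO4 overexpression in untreated and in TGFβ-treated cells, to several times its level in EV cells. At baseline its FPKM was 7.81, 9.82, 12.3 and 9.49 in the EV libraries and 38.5, 39.2 and 31.9 in the XPO4 libraries. Every XPO4 library was above every EV library, by more than the spread within either group. The mean went from 9.85 ± 1.84 FPKM (SD, n = 4) to 36.5 ± 4.06 FPKM (SD, n = 3), 3.71-fold, and the log2 difference was 1.80 (SE 0.14, 95% interval 1.47 to 2.13, limma adjusted p = 0.00011). With TGFβ, Tlr3 stood at 7.78, 10.3, 11.5 and 8.09 FPKM in EV libraries, against 51.8, 36.6, 60.5 and 40.0 FPKM in XPO4 libraries. Here too the groups did not overlap, although the XPO4 libraries spread more widely, with replicates 0 and 2 above 1 and 3. The mean went from 9.41 ± 1.78 FPKM (SD, n = 4) to 47.2 ± 11.0 FPKM (SD, n = 4), 5.02-fold, with a log2 difference of 2.20 (SE 0.18, 95% interval 1.81 to 2.59, limma adjusted p = 3.01e-05). Leaving out each library in turn kept the baseline difference between 1.71 and 1.90 and the TGFβ difference between 2.07 and 2.31, all of them called. In bulk RNA, a change in the share of cells that make a transcript cannot be told apart from a change in its level per cell.

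The receptor of the complex itself, Tlr4, passed no test between the constructs. The 4 EV libraries at baseline gave 9.03, 12.7, 13.6 and 7.94 FPKM, and the 3 XPO4 libraries gave 15.3, 7.75 and 8.70 FPKM. The ranges overlapped widely, and the XPO4 group held both the highest and the lowest library. The log2 difference was -0.05 (95% interval -0.62 to 0.51, limma adjusted p = 0.955). With TGFβ, Tlr4 gave 6.23, 10.6, 9.73 and 8.81 FPKM with the empty vector against 14.4, 7.14, 11.7 and 11.8 FPKM with XPO4. Of these, 3 XPO4 libraries were above all EV libraries and replicate 1 was among them, and the log2 difference of 0.30 (95% interval -0.17 to 0.77, limma adjusted p = 0.615) did not pass. A gene-level value does not separate the restored TLR4 from a transcript of the disrupted gene. The ratio of Tlr3 to Tlr4 FPKM ran from 0.775 to 1.25 over the 8 EV libraries and from 2.51 to 5.16 over the 7 XPO4 libraries, so the sensor of dsRNA was near the level of the lipopolysaccharide receptor in EV cells and above it in XPO4 cells.

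Tlr2 was at the edge of detection. Its FPKM at baseline was 0.0762, 0, 0 and 0 in EV and 0.155, 0.0768 and 0 in XPO4 libraries. With TGFβ it was 0, 0.0717, 0.200 and 0.0654 in EV and 0.230, 0.146, 0.426 and 0.309 in XPO4 libraries, where no library was listed at 0. In a limma fit with no minimum level, the log2 difference of XPO4 from EV with TGFβ was 0.24. Its unadjusted p was 0.0261 and its adjusted p 0.317, and the groups overlapped. The other 11 genes of the receptor family listed (Toll-like receptors other than the members, with Cd180 and its partner Ly86) were all below a mean of 1 FPKM and none was tested. Tlr1 reached 1.15 FPKM in 1 library and Tlr7 stayed at or below 0.504 FPKM, while Tlr5 was listed at 0 in 14 and Tlr9 in 12 of the 15 libraries.

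Of the proteins that present lipopolysaccharide to TLR4, none passed the test in any comparison. Cd14 (chr18:36725067-36726798, minus strand) stood at 15.1, 17.7, 19.2 and 18.6 FPKM in EV libraries at baseline, against 19.2, 20.4 and 26.4 FPKM with XPO4. The groups did not overlap, but the highest EV and the lowest XPO4 library were equal to 3 digits, and the log2 difference of 0.30 (95% interval 0.00 to 0.59, unadjusted p = 0.0482) had a limma adjusted p of 0.323. With TGFβ, Cd14 was at 22.4, 23.4, 20.8 and 21.4 FPKM in EV and at 16.5, 23.6, 20.1 and 20.5 FPKM in XPO4 libraries. These groups overlapped, and the log2 difference was -0.13 (95% interval -0.38 to 0.12, limma adjusted p = 0.714). Cd14 is also a macrophage gene: the summed level of the 11 macrophage markers, which did not include it, was 10.5 to 12.3 FPKM in EV and 8.38 to 9.95 FPKM in XPO4 libraries at baseline. With TGFβ that sum was 9.43 to 12.4 FPKM in EV and 5.92 to 9.67 FPKM in XPO4 libraries, and its part in the Cd14 values was not tested.

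Ly96, without which TLR4 does not bind lipopolysaccharide, was low and scattered. Its FPKM was 1.10, 1.64, 2.20 and 5.51 in EV and 1.70, 3.80 and 1.59 in XPO4 libraries at baseline, and 3.95, 1.03, 0.548 and 2.58 in EV and 1.13, 1.54, 3.49 and 0.555 in XPO4 libraries with TGFβ. Each group spanned more than a doubling, and all 4 overlapped. The log2 difference of XPO4 from EV was -0.02 (95% interval -0.92 to 0.87) at baseline and -0.14 (95% interval -1.07 to 0.79) with TGFβ, so changes of nearly that width in either direction could not be told from none. Lbp, which hepatocytes secrete, was listed at 0 in 8 of 15 libraries and reached 0.341 FPKM at most. Of 5 hepatocyte markers, 4 were also listed at 0 in all libraries.

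Of the adaptors, Myd88 was called higher in XPO4 cells with TGFβ and missed the threshold at baseline, while Ticam1 passed no test. With TGFβ, Myd88 read 51.3, 49.6, 41.8 and 37.9 FPKM in EV libraries, against 79.1, 59.3, 63.4 and 65.6 FPKM with XPO4. The groups did not overlap. The mean went from 45.2 ± 6.35 to 66.9 ± 8.57 FPKM (SD, n = 4 in each group), which is 1.48-fold and 0.56 on the log2 scale (SE 0.12, 95% interval 0.28 to 0.83, limma adjusted p = 0.0333). That call was near the threshold and ended, at adjusted p between 0.0516 and 0.0963, without any of EV replicates 1, 2 or 3 or XPO4 replicates 0, 2 or 3, and it also ended with no minimum level (0.0604), without the limma trend (0.0602) and with all 4 groups in 1 fit (0.104). At baseline, Myd88 read 74.9, 50.7, 40.3 and 36.6 FPKM in EV libraries, against 68.1, 73.9 and 93.1 FPKM with XPO4. EV replicate 0 lay inside the XPO4 range and the other 3 EV libraries below it. The log2 difference was 0.66 (SE 0.23, 95% interval 0.14 to 1.18, limma adjusted p = 0.198), and without EV replicate 0 it was 0.87 with an adjusted p of 0.026. The test of whether the baseline and TGFβ differences of Myd88 differ gave -0.11 (95% interval -0.68 to 0.47).

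Exons of Myd88 overlap the span of Acaa1a, a peroxisomal thiolase gene on the opposite strand. Whether exons of Acaa1a cover the same bases was not examined. The libraries keep strand, but no source used here says whether the counting used it, so the Myd88 values may hold reads of that gene. Acaa1a itself averaged 48.7 FPKM in EV and 63.4 FPKM in XPO4 libraries at baseline and 46.6 and 51.5 FPKM with TGFβ, and its log2 differences of 0.35 (adjusted p = 0.376) and 0.16 (adjusted p = 0.794) did not pass. The same doubt holds for Tlr3, which overlaps an antisense gene that was not analysed here. On the same strand as Myd88, Slc22a14 also overlaps its exons, and was listed at 0.115 FPKM at most. Exons of Xpo4 overlap the span of Gm49361, a protein-coding gene on the same strand that was not analysed here. Strand would not separate the reads of such pairs.

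Ticam1 was at 7.12, 7.65, 11.2 and 7.93 FPKM in EV and at 7.58, 10.3 and 9.77 FPKM in XPO4 libraries at baseline. With TGFβ it was at 8.48, 8.003, 9.09 and 10.5 FPKM in EV and at 7.24, 8.59, 6.33 and 7.46 FPKM in XPO4 libraries. The groups overlapped under both conditions. Its log2 difference was 0.12 (95% interval -0.26 to 0.50) at baseline and -0.25 (95% interval -0.53 to 0.02) with TGFβ, so a rise as large as that of Tlr3 lies outside both intervals. Myd88 exceeded Ticam1 in every library, by a ratio of 3.61 to 10.5 in EV and 7.17 to 9.53 in XPO4 libraries at baseline, and of 3.62 to 6.20 in EV and 6.91 to 10.9 in XPO4 libraries with TGFβ.

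Counted together, 1 of the 6 tested members was called at baseline, Tlr3, where 3.71% of 11926 genes were called and 2.85% were called higher. With TGFβ, 2 of 6 were called, Tlr3 and Myd88, where 3.74% of 11976 genes were called and 2.89% higher. No member was called lower, beside 0.864% and 0.852% of genes. At an unadjusted p under 0.05 there were 3 members at baseline and 2 with TGFβ, beside 15.2% and 14% of genes. Groups did not overlap for 2 of 6 members at baseline, Tlr3 and Cd14, against 16.2% of all genes tested, and for 2 of 6 with TGFβ, Tlr3 and Myd88, against 10.2%. The median log2 difference of the 6 members was 0.21 at baseline and 0.09 with TGFβ, and that of all genes was -0.00 in each.

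**Figure D2:**
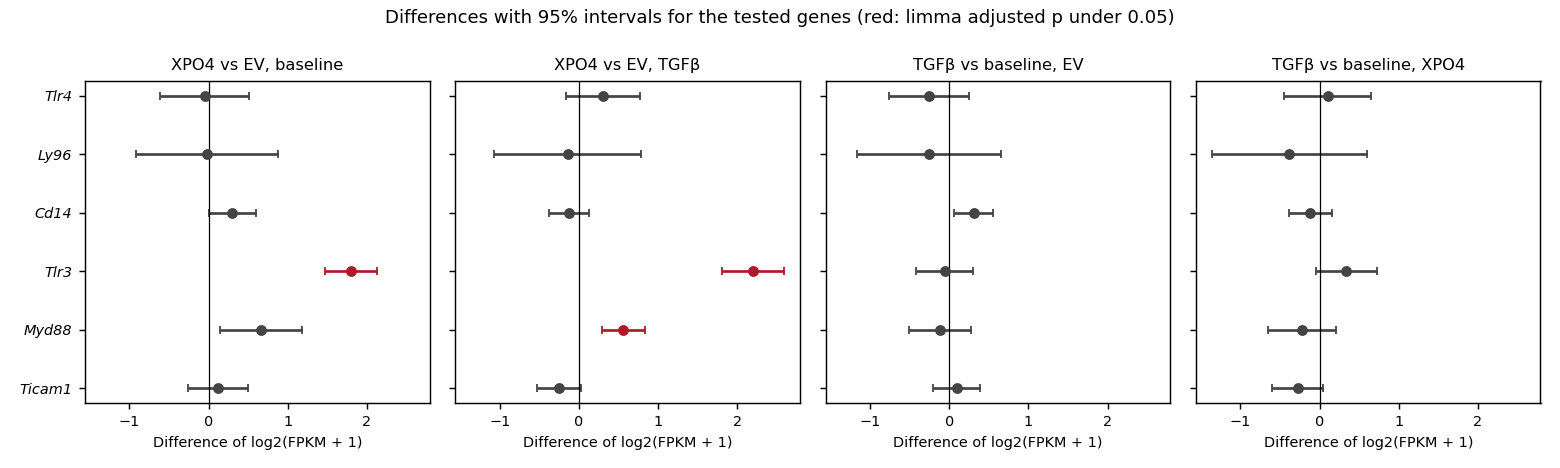
Difference of log2(FPKM + 1) for the 6 tested genes in each of 4 comparisons, with its 95% interval from limma, in red where the adjusted p was under 0.05. The XPO4 intervals of Tlr3 lie at 1.47 to 2.13 at baseline and 1.81 to 2.59 with TGFβ, and those of Tlr4, Ly96 and Ticam1 cross 0.

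**Figure D3:**
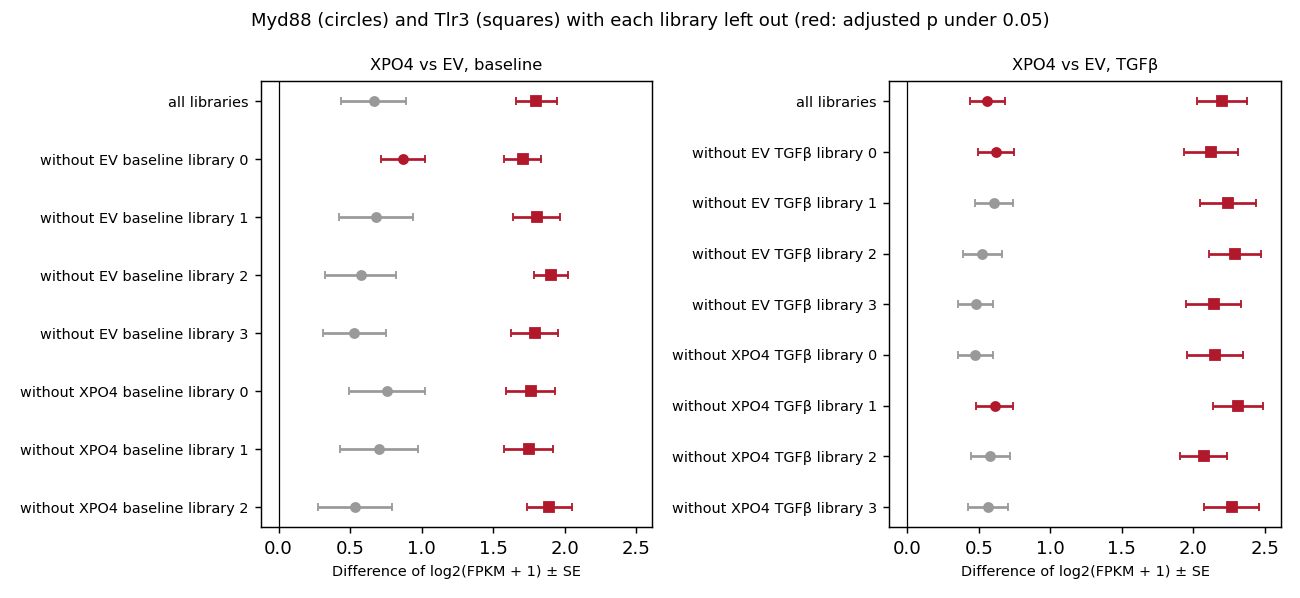
Difference of log2(FPKM + 1) ± SE between XPO4 and EV libraries for Tlr3 (squares) and Myd88 (circles), with all libraries and with each left out in turn, in red where the limma adjusted p was under 0.05. The Tlr3 values stay between 1.71 and 2.31 and are all red, while Myd88 with TGFβ is red in only 2 of the 8 fits that leave out a library.

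No member passed the test for TGFβ. These comparisons and the interaction join values of 2 separately deposited tables, in which FPKM was scaled per library, and the EV and XPO4 effects share their groups with the comparisons above. In EV cells 0 of 6 members were called where 1.77% of 11951 genes were (1.24% higher, 0.536% lower), with 1 member at an unadjusted p under 0.05 beside 11.5% of genes. That member was Cd14, 17.6 ± 1.83 FPKM at baseline and 22.0 ± 1.14 FPKM with TGFβ (SD, n = 4 each). Its groups did not overlap, as in 7.82% of all genes, and the log2 difference was 0.31 (95% interval 0.06 to 0.56, unadjusted p = 0.0191, limma adjusted p = 0.285). Tlr4 differed by -0.25 (95% interval -0.76 to 0.25), Tlr3 by -0.06 (95% interval -0.42 to 0.30) and Myd88 by -0.12 (95% interval -0.51 to 0.28) in EV cells. In XPO4 cells, again 0 of 6 members were called, where 1.77% of genes were (1.19% higher, 0.577% lower). None of the 6 had an unadjusted p under 0.05, beside 10.1% of genes, and none had groups that did not overlap, beside 9.85%. Tlr3 differed there by 0.34 (95% interval -0.05 to 0.72, limma adjusted p = 0.577), Myd88 by -0.22 (95% interval -0.65 to 0.20) and Ticam1 by -0.28 (95% interval -0.60 to 0.04). In the limma fit with no minimum level, Tlr2 differed in XPO4 cells by 0.24 (unadjusted p = 0.00874, adjusted p = 0.283). Lbp differed there by 0.24 as well (unadjusted p = 0.0469, adjusted p = 0.613). Both genes are near the floor, and their groups overlapped.

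The difference between the XPO4 effects with and without TGFβ was tested as an interaction, and limma called 0 of 6 members and 0% of all genes, with 344 genes (2.88%) and 1 member at an unadjusted p under 0.05. The member was Cd14, at -0.43 (95% interval -0.79 to -0.06, unadjusted p = 0.026, adjusted p = 0.9998): it was higher in XPO4 than EV libraries at baseline and slightly lower with TGFβ. For Tlr3 the interaction was 0.40 (95% interval -0.12 to 0.92), so the larger XPO4 difference of Tlr3 with TGFβ was not told apart from the one at baseline.

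Bambi (chr18:3507923-3516404, plus strand) was low in every library, and no difference with construct or TGFβ passed the test. Its FPKM was 0.684, 0.539, 0.669 and 0.740 in EV and 1.09, 0.699 and 0.643 in XPO4 libraries at baseline. With TGFβ it was 1.26, 0.658, 1.11 and 0.724 in EV and 0.663, 0.886, 1.19 and 0.873 in XPO4 libraries. All 4 groups overlapped, and the widest gap between group means was that from EV baseline, 0.658 ± 0.0852 FPKM (SD, n = 4), to EV with TGFβ, 0.938 ± 0.292 FPKM (SD, n = 4). In the limma fit with no minimum level the XPO4 difference of Bambi was 0.12 on the log2 scale (95% interval -0.17 to 0.41, adjusted p = 0.763) at baseline and -0.02 (95% interval -0.36 to 0.31, adjusted p = 0.978) with TGFβ. TGFβ gave 0.21 (95% interval -0.06 to 0.49, unadjusted p = 0.113, adjusted p = 0.714) in EV and 0.07 (95% interval -0.22 to 0.37, adjusted p = 0.98) in XPO4 cells. At this level a pseudocount of 1 shrinks log2 differences, and a processed copy, Bambi-ps1 at chr2:122466935-122467526, was itself listed at 0 to 2.56 FPKM, so reads may have been split between the 2 genes.

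The rest of the pathway is described by lists of named genes. Of 20 adaptors and kinases downstream of the receptor 19 were tested, and none was called in any of the 5 comparisons, with medians of -0.01 at baseline and 0.03 with TGFβ for XPO4. Of all genes, 3.71% were called for XPO4 at baseline and 3.74% with TGFβ, and 1.77% for TGFβ in EV and in XPO4 cells. Tirap, which links TLR4 and TLR2 to MyD88, averaged 13.4 FPKM in EV and 13.3 FPKM in XPO4 libraries at baseline. Ticam2, the bridge between TLR4 and TRIF, was listed at 0 in 14 of 15 libraries and reached 0.08 FPKM. Irf3, the interferon regulatory factor that TRIF activates, stayed between 26.6 and 44.7 FPKM. The kinase Tbk1 averaged 10.7 FPKM in EV and 13.1 FPKM in XPO4 libraries at baseline, and 10.5 and 12.7 FPKM with TGFβ. Its EV and XPO4 groups did not overlap, as in 16.2% of all genes at baseline and 10.2% with TGFβ. No other tested gene of the list had such groups in either. The log2 differences of Tbk1, 0.26 at baseline (limma adjusted p = 0.178) and 0.26 with TGFβ (adjusted p = 0.263), did not pass. None of 7 tested folding and trafficking genes was called either, beside the same shares of all genes. Hsp90b1, a chaperone that folds TLR4 and several other Toll-like receptors, was at 389 to 519 FPKM. Unc93b1, which carries TLR3 to endosomes, was listed at 0 in 12 of 15 libraries.

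Of 14 inhibitors of the pathway 12 were tested, and the same 3, Atf3, Tnfaip3 and Socs1, rose with XPO4 under both conditions. Of all genes, 2.85% were called higher at baseline and 2.89% with TGFβ. The list's median was 0.19 at baseline and 0.20 with TGFβ, beside -0.00 for all genes. Atf3, a repressor of NF-κB target genes, went from 55.4 ± 1.25 FPKM (SD, n = 4) to 87.9 ± 4.58 FPKM (SD, n = 3) at baseline (log2 0.66, limma adjusted p = 0.000448) and from 70.8 to 101 FPKM with TGFβ (log2 0.51, adjusted p = 0.00351), and TGFβ raised it in EV cells by 0.35 (adjusted p = 0.0105). Tnfaip3, the ubiquitin-editing enzyme A20, went from 28.6 to 42.4 FPKM at baseline (log2 0.56, adjusted p = 0.043) and from 29.5 to 46.1 FPKM with TGFβ (log2 0.63, adjusted p = 0.00622). Socs1, which blocks cytokine receptor kinases and is itself an interferon target, went from 11.0 to 25.5 FPKM (log2 1.20, adjusted p = 0.0249) and from 11.6 to 25.6 FPKM (log2 1.11, adjusted p = 0.0123). The TGFβ-condition calls of all 3 held without each library in turn. At baseline that was so for Atf3, whereas the Tnfaip3 call ended in 6 of 7 fits (all but the one without EV replicate 2) and the Socs1 call in 5 of 7 (without EV replicates 1 or 3 or any XPO4 replicate), at adjusted p up to 0.149 and 0.0988. With no minimum level both baseline calls ended as well. That of Tnfaip3 also ended on quantile and TPM scales, without the limma trend and with a block for library set. The block split replicates 0 and 1 from 2 and 3, by their numbers alone.

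All 10 genes listed as targets of the TRIF branch were tested and called higher with XPO4 under both conditions. Their median was 1.61 at baseline and 1.89 with TGFβ. Of all genes, 2.85% were called higher at baseline and 2.89% with TGFβ. The list was chosen with earlier results of these data known, so its count is a description and not a test of the branch. The 10 genes are interferon-β, chemokines and interferon-induced genes, which other sensors than TLR3 and TLR4 also induce. Ifit3, an interferon-induced antiviral protein, went from 118 ± 6.65 to 1141 ± 57.1 FPKM at baseline (log2 3.26) and from 101 ± 9.99 to 1252 ± 37.6 FPKM with TGFβ (log2 3.63), though a near-identical neighbouring gene may share its reads. Mx1, a GTPase that blocks influenza virus, went from 2.80 to 42.5 FPKM (log2 3.53) and from 2.15 to 51.7 FPKM (log2 4.13). Irf7, the factor that amplifies interferon production, rose by 1.80 and 1.92, Rsad2, the antiviral enzyme viperin, by 2.05 and 2.51, and the T cell attractant Cxcl10 by 1.08 and 1.58. The adjusted p of these 5 genes was at most 1.49e-05 in each comparison. TGFβ lowered 2 of the 10 in EV cells, Cxcl10 by a log2 change of -0.34 (adjusted p = 0.00404) and the chemokine Ccl5 by -0.61, and none in XPO4 cells. Of all genes, TGFβ lowered 0.536% in EV and 0.577% in XPO4 cells. The Cxcl10 call in EV cells ended with no minimum level.

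**Figure D4:**
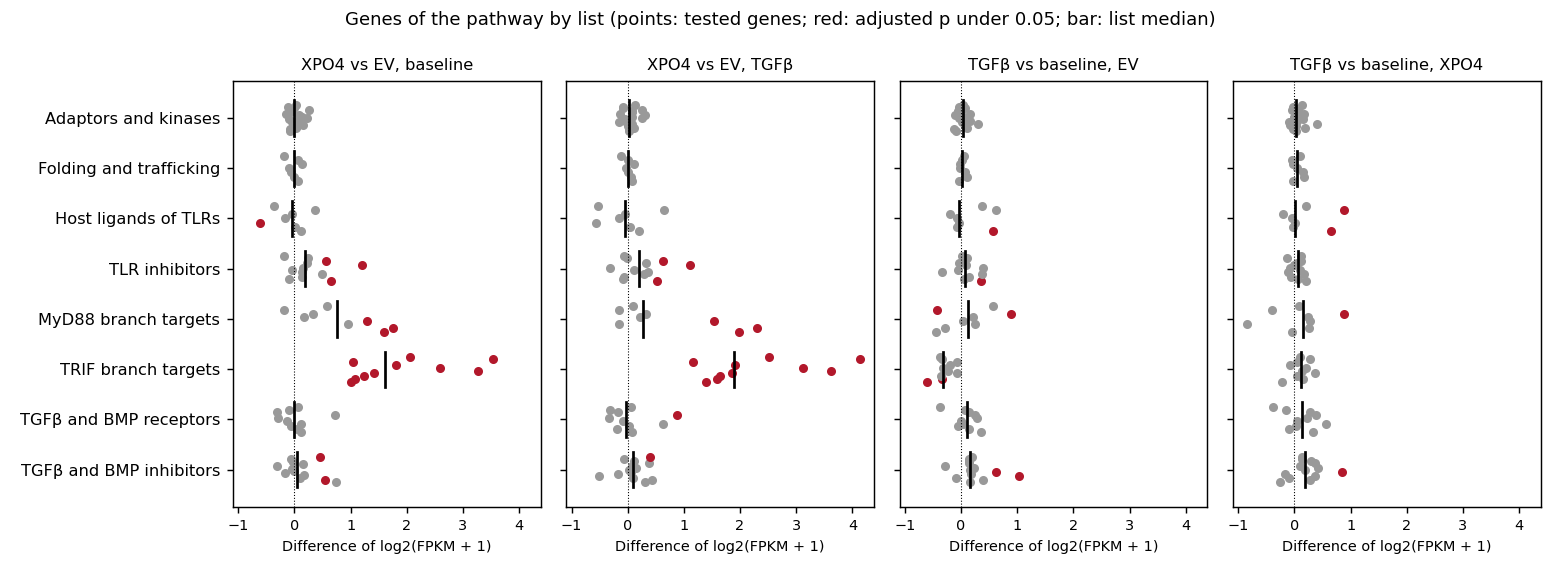
Difference of log2(FPKM + 1) for every tested gene (points, red where the limma adjusted p was under 0.05) of the 8 pathway lists that had one, in 4 comparisons, with the median of each list as a bar. Between XPO4 and EV libraries the 10 TRIF branch targets lie above 0, with medians of 1.61 at baseline and 1.89 with TGFβ, and the 19 adaptors and kinases have medians of -0.01 and 0.03. The lists were chosen with earlier results of these data known.

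Of 16 targets listed for the MyD88 branch only 8 reached 1 FPKM, and the same 3 rose with XPO4 under both conditions, with list medians of 0.76 and 0.26. The share of all genes called higher was 2.85% at baseline and 2.89% with TGFβ. The monocyte attractants Ccl7 (log2 1.76 at baseline and 2.30 with TGFβ) and Ccl2 (1.60 and 1.98) were called in every fit that left out a library. Il6, the acute-phase cytokine, went from 0.916 to 3.58 FPKM at baseline (log2 1.29, limma adjusted p = 0.0222) and from 0.950 to 4.82 FPKM with TGFβ (log2 1.54, adjusted p = 0.0081). Its baseline call ended in 5 of 7 fits that left out a library, those without EV replicates 1 or 3 or any XPO4 replicate. Tnf was listed at 0 in 13 and Il1b in 14 of 15 libraries. TGFβ raised Ptgs2, the prostaglandin synthase COX2, from 77.7 to 144 FPKM in EV (log2 0.88, adjusted p = 0.000505) and from 97.2 to 181 FPKM in XPO4 cells (log2 0.87, adjusted p = 0.000863). Vcam1, a leukocyte adhesion molecule, fell with TGFβ in EV cells from 178 to 131 FPKM (log2 -0.44, adjusted p = 0.0239). That call ended in 5 of 15 fits that left out a library (EV baseline replicates 1 or 2, EV TGFβ replicates 0, 1 or 3) and on quantile and TPM scales. In XPO4 cells Vcam1 differed by -0.40 (adjusted p = 0.055).

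Of 9 host molecules known to act on TLR4 or TLR2, 7 were tested. For XPO4, 1 was called lower at baseline, beside 0.864% of all genes, and none was called with TGFβ, beside 3.74%. For TGFβ, 1 was called higher in EV and 2 in XPO4 cells, beside 1.24% and 1.19% of all genes. Fibronectin (Fn1) fell with XPO4 at baseline from 135 to 87.7 FPKM (log2 -0.62, limma adjusted p = 0.00249) and differed by -0.57 with TGFβ (adjusted p = 0.0753). The proteoglycan biglycan (Bgn) rose with TGFβ from 414 to 616 FPKM in EV (log2 0.57) and from 448 to 706 FPKM in XPO4 cells (log2 0.65). Tenascin C (Tnc) rose with TGFβ in XPO4 cells from 3.70 to 7.83 FPKM (log2 0.88, adjusted p = 0.0284). That call ended without any of the 3 XPO4 baseline replicates or XPO4 TGFβ replicates 0 or 2, or with no minimum level, and in EV cells the difference was 0.62 (adjusted p = 0.121).

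The receptors and inhibitors that work beside BAMBI held 1 call for XPO4 among receptors and 3 among inhibitors, over both conditions. Of 13 TGFβ and BMP receptor genes 10 were tested, and 0 of them were called for XPO4 at baseline and 1 was called higher with TGFβ, beside 2.89% of all genes. That gene was endoglin (Eng), a co-receptor, at 55.6 ± 15.8 FPKM in EV and 101 ± 16.9 FPKM in XPO4 libraries (SD, n = 4 each, log2 0.87, limma adjusted p = 0.025). That call ended in 6 of 8 fits that left out a library, all but those without EV replicate 0 or XPO4 replicate 2, and with no minimum level, and the baseline difference was 0.73 (adjusted p = 0.077). No receptor was called lower for XPO4 with TGFβ, beside 0.852% of all genes. That count rose above 0 on quantile, TPM and median-centred scales and with all 4 groups in 1 fit. The receptor gene Tgfbr2 was at 63.8 to 71.9 FPKM in EV and 50.2 to 59.0 FPKM in XPO4 libraries with TGFβ. These groups did not overlap, as in 10.2% of all genes, but those at baseline did. Of 17 inhibitors of TGFβ and BMP signalling, 12 were tested at baseline, with 2 called higher beside 2.85% of all genes, and 13 with TGFβ, with 1 called higher beside 2.89%. Tgif1, a corepressor of SMAD proteins, was called at baseline (log2 0.46, adjusted p = 0.0317) and with TGFβ (0.39, adjusted p = 0.0375), and the BMP antagonist Grem1 at baseline (0.54, adjusted p = 0.0152). The 3 calls ended when any of several libraries was left out, 5 of 7 at baseline for each gene and 6 of 8 with TGFβ for Tgif1, whose calls at baseline and with TGFβ also ended on quantile and TPM scales and without the limma trend. For TGFβ itself, 2 of 13 inhibitors were called higher in EV cells, beside 1.24% of all genes, and 1 of 13 in XPO4 cells, beside 1.19%. Pmepa1, a TGFβ target that sequesters SMAD proteins, rose from 87.9 to 137 FPKM in EV (log2 0.63) and from 78.8 to 143 FPKM in XPO4 cells (log2 0.85). The BMP antagonist Nbl1 rose in EV cells from 0.701 to 2.55 FPKM (log2 1.03, adjusted p = 0.016), a call that ended without EV baseline replicates 0 or 3 or EV TGFβ replicate 1. Smad7, the inhibitory SMAD, was tested and not called in any comparison. With TGFβ it was at 13.8 to 17.4 FPKM in EV and 18.5 to 23.4 FPKM in XPO4 libraries, groups that did not overlap.

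The genes whose level followed each member most closely were sought among 10621 genes, by Pearson r of log2(FPKM + 1) over the 15 libraries, which share the construct and treatment groups. For Tlr3 the 3 nearest were Ifit2, Irgm2 and Trim30a, each at r = 0.99, and within groups, where the construct no longer adds to r, these were 0.89, 0.87 and 0.86. Those for Tlr4 were Abcb1a at 0.83, Rev1 at 0.82 and Whsc1l1 at 0.82. Myd88 was nearest to Tenc1 at 0.88, Gpr137 at 0.86 and Uba7 at 0.84, and within groups these were 0.83, 0.78 and 0.67. Cd14 was followed by Slc35a2 at 0.81, Ticam1 by Etfdh at 0.82 and Ly96 by Sap30 at 0.83. The highest r among 10621 genes over 15 libraries can be large by chance, which was not tested.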

How the data were processed

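Libraries were made from poly(A) RNA and kept strand through dUTP, per the labels' protocols. CASAVA 1.8.2 and STAR 2.7.2b, with builds mm10 and GRCh38 in no stated role, are named per the submitters' processing notes; no source used here names the program that computed FPKM. The authors deposited FPKM values in 1 table for baseline and 1 for TGFβ. Genes below 1 FPKM were searched for whole-read steps by their ratio to EV baseline replicate 0. Between 2.52% and 21.8% of them lay within 0.02 log2 of the most common ratio of a library. No read depth was derived from these ratios, so depth and counting error are unknown.

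Groups came from the library titles and characteristics. Differences were tested with limma 3.58.1 (trend) in R 4.3.3 on log2(FPKM + 1), on every gene averaging 1 FPKM or more in the libraries fitted, with Benjamini-Hochberg adjustment over all of them and a threshold of 0.05. XPO4 effects were fitted within 1 table, on 7 and 8 libraries, and TGFβ effects and the interaction on all 15. The fit was tested on simulated data. Named were all 9 members, Xpo4, up to 5 called genes of each pathway list by smallest adjusted p, and the 3 nearest patterns of each tested member; Ccl5 and the uncalled list genes named with a level were chosen after their values were seen. Members and lists were chosen with earlier results of these data known. The alternatives were other pseudocounts, minimum levels and scalings, blocks for replicate number and library set, no trend, 1 joint fit, and each library left out. Library set means replicates 0 and 1 against 2 and 3, a split made from the replicate numbers. Positions are from GENCODE M21 and promoters from RefSeq. Motif search and figures used Python 3.11.15 and matplotlib 3.10.9.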

Additional observations from a re-analysis of the deposited data

Results flagged for a closer look

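In groups of 4 libraries, a library was picked out when its distance to the nearest other, divided by the range of the group, passed Dixon's critical value. Among the 27 groups of 4 libraries examined for the 9 genes, 2 held such a library. Chance picks about 1 in 20 groups of continuous values, a rate that does not hold for groups with values listed at 0. Lbp was listed at 0.341 FPKM in EV baseline replicate 3 and at 0 in the other EV baseline libraries. Tlr2 was listed at 0.0762 FPKM in EV baseline replicate 0 and at 0 in the others of that group. Each was the only value above 0 in its group, so its distance to the nearest other library equalled the range by construction. Both values are far below 1 FPKM, and neither gene was tested in the fits with a minimum level.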

How the results depend on the processing

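Over all alternatives, 102 counts of called members stayed as reported, 9 were lower and 1 was higher, and 0 called members reversed. The 102 include the counts for TGFβ and the interaction, which were 0 throughout. All 9 lower counts were for XPO4 with TGFβ, where 2 of 8 fits that left out a library kept the count. The baseline count was 1 in every alternative but 1, and 1 to 2 when each library was left out: Myd88 joined Tlr3 without EV replicate 0. With TGFβ the count of 2 fell to 1 with no minimum level, without the limma trend and with all 4 groups in 1 fit, and ran from 1 to 2 when each library was left out, Myd88 being the gene lost. No member was called for TGFβ or the interaction under any alternative. Same-numbered libraries of paired groups correlated between -0.15 and 0.25 in their deviations from the group mean, and the labels do not say that numbers pair them. At baseline EV replicates 0, 1 and 2 each correlated best with the XPO4 library of the same number, though only at 0.02 to 0.04. EV replicate 3 had no such partner. With TGFβ 2 of 4 EV libraries correlated best with their own number. With a replicate block the member counts were 1 and 2, as without it, with adjusted p of 0.0103 for Tlr3 at baseline and 0.0368 for Myd88 with TGFβ; the Xpo4 call at baseline ended (0.87, adjusted p = 0.0891). Among the pathway genes it also ended the baseline calls of Tnfaip3, Socs1, Il6, Tgif1 and Grem1, those of Eng and Tgif1 with TGFβ, and that of Tnc for TGFβ in XPO4 cells. Over all genes the block took the baseline counts from 340 higher and 103 lower to 205 and 19, and a block for library set took the lower count to 63. With TGFβ 102 lower genes became 155 on the TPM scale and 230 with all 4 groups in 1 fit. Leaving out libraries gave 224 to 346 higher and 46 to 105 lower genes at baseline, 54 to 92 lower genes with TGFβ, 77 to 165 higher and 31 to 78 lower for TGFβ in EV cells, and 87 to 147 and 30 to 73 in XPO4 cells. The interaction gave at most 1 gene, on the TPM scale or with a library left out. The causes were not tested.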
